A study of Drosophila melanogaster with 12 samples.

Results

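SvbACT and SvbREP are an activator form and a repressor form of the Drosophila transcription factor Shavenbaby (Svb), each expressed in enterocytes of the adult posterior midgut. Their libraries were compared directly, 3 against 3, with no library of any control genotype. These 6 of the 12 libraries in the series were taken by genotype, and libraries with the same replicate number were treated as a pair. The comparison was made across all 7949 genes with enough counts to test, of 8802 in the deposited table.

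Svb is made from the ovo locus as a long protein that represses transcription. Small peptides encoded by polished rice (pri) bring the ubiquitin ligase Ubr3 to it, and the proteasome then trims it to a shorter protein that activates transcription. In the epidermis, Svb is known for driving the genes that build denticles and hairs, and in the adult gut it acts in intestinal stem cells and their progeny. Enterocytes are the absorptive cells of the midgut, which secrete digestive enzymes and take up nutrients.

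Both groups carried the enterocyte driver MyoIA-Gal4 with UAS-GFP in single copy and tubGal80TS, a heat-sensitive block of Gal4. The SvbACT flies also carried UAS-SvbACT::GFP, and the SvbREP flies carried UAS-Svb3Kmut::GFP in its place. All were virgin females, moved to 29 °C at 3 days of age for 6 days and dissected at 9 days. Midgut regions R3 to R5 of a batch of flies were pooled for each library, and GFP-positive cells were sorted. The 3 replicates of a genotype were made on different days. The driver acts in enterocytes as a class, and the transgenes came from different stocks, so the form of Svb and the stock cannot be told apart. Libraries are bulk RNA, in which fewer cells of a type and less RNA per cell cannot be told apart.

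Totals ran from 4695678 to 8881488 counts in SvbACT and from 3355847 to 7652286 counts in SvbREP, and 8439 to 8688 genes had a count. A floor of 3 counts was worth 0.332 to 0.914 CPM, which are counts divided by TMM-corrected library sizes. Floors and counting intervals cover counting error only. On the first principal component, with 35.6% of the variance, library 1 lay lowest in both groups (-24.8 in SvbACT, -31.9 in SvbREP) and library 3 highest (5.16 and 46.2). On the second, with 21.5%, SvbACT lay from -28.2 to -2.86 and SvbREP from 0.0752 to 29.8. SvbREP library 1 stood apart, and not only in a small set of genes. Its Spearman correlation with the other libraries ran from 0.9421 to 0.9609, while every other library reached at least 0.9689 with some library. Among tested genes, SvbREP library 1 held over 80% of the summed CPM of the 6 libraries for 5 genes, and no other library did so. The count filter asks for counts in several libraries, so most genes found in 1 library alone were not tested. The lipoprotein receptor gene LpR1 was 1 of these 5, at 72.1 CPM there and at most 2.29 CPM elsewhere. Hml, which marks blood cells and was not tested, had 102 counts in SvbREP library 1 and 0 in each other library. Other blood cell markers did not share this. In SvbREP libraries 1, 2 and 3 srp had 25.3, 18.0 and 35.05 CPM. The 5 tested blood cell markers summed to 273, 305 and 359 CPM there. Lsp1beta, from the list of fat body and ovary markers, had 19 counts in SvbACT library 3 and 0 in each other library.

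Transcripts of ovo itself were present in all 6 libraries. ovo (chromosome X, 5048273 to 5070929, dm6) had 229.8, 178 and 102 CPM in SvbACT against 522, 220.2 and 174 CPM in SvbREP. SvbREP was the higher member of each pair, although the groups overlapped. The fitted log2 ratio of SvbACT to SvbREP was -0.75 (SE 0.18, 95% interval -1.15 to -0.35), and it was not called (unadjusted p 0.00209, adjusted p 0.178). DESeq2 did call it (adjusted p 0.0192), and without the replicate block the adjusted p was 1.00. Counts of ovo take in endogenous and transgenic transcripts alike, and its exons overlap those of lncRNA:CR44833 on the opposite strand. Myo31DF, the myosin gene whose enhancer trap gives the MyoIA driver, had 485, 454 and 458 CPM in SvbACT against 562, 535 and 646 CPM in SvbREP. It lay lower in every SvbACT library than in any SvbREP library, at a log2 ratio of -0.31 (SE 0.14, adjusted p 0.741), and was not called.

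Between the 2 forms, 33 genes differed at an adjusted p under 0.05, 0.415% of those tested. Of these, 26 were higher in SvbACT (0.327%) and 7 were lower (0.0881%). The list with the most called members was that of gut serine proteases, with 4 genes of the Jonah family. The genes higher in SvbACT also took in the transcription factor genes lov and br, the ion channel gene TrpA1, the piRNA gene piwi and the ferlin gene mfr. Among those lower in SvbACT were the transcription factor gene dar1, the chloride transporter gene Ncc69 and the receptor genes nAChRalpha4 and AdoR. Every one of the 33 had the same sign in 3 of 3 pairs. Over all tested genes, 1052 (13.2%) were higher in SvbACT in all 3 pairs and 1134 (14.3%) lower. Groups did not overlap for 21 of the 26 and 6 of the 7, against 365 (4.59%) and 353 (4.44%) of all tested genes. At an unadjusted p under 0.05 there were 527 genes (6.63%). Without the replicate block 8 genes were called (0.101%), and all 8 were among the 33: mfr, lov, CG42524, CG12057, piwi, rdog, TrpA1 and rst. With pair 1 left out 205 genes were called, with pair 2 left out 28 and with pair 3 left out 93, and these took in 33, 21 and 31 of the 33. Whether the authors' counting used strand is not given in the sources used here. Exons of AdoR, CG10472, CG43078, Mdr49, br, mfr and piwi overlap a gene on the opposite strand, so a part of their counts is uncertain in origin.

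**Figure D1:**
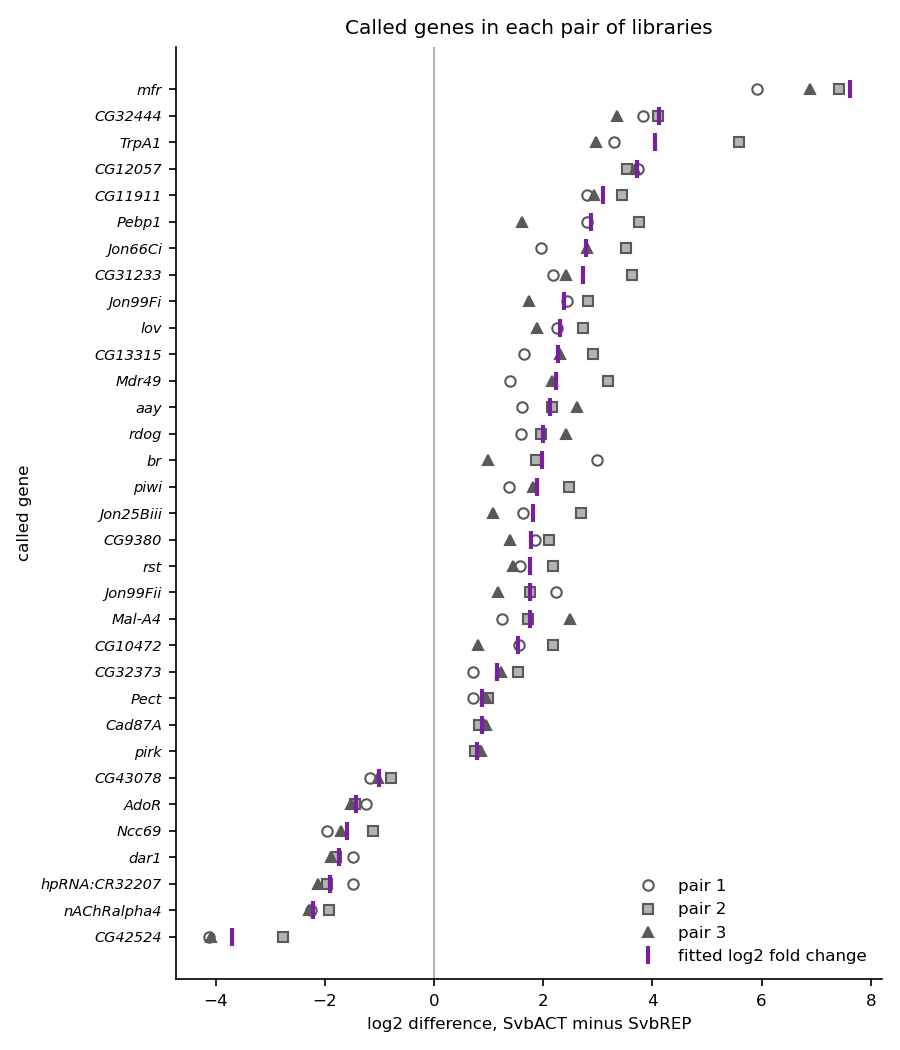
Log2 difference between SvbACT and SvbREP (x axis) for the 33 called genes (y axis), with 1 symbol for each of the 3 pairs of libraries and a bar at the fitted log2 ratio. Every gene lies on 1 side of 0 in all 3 pairs, from mfr at a fitted 7.62 to CG42524 at -3.69.

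**Figure D2:**
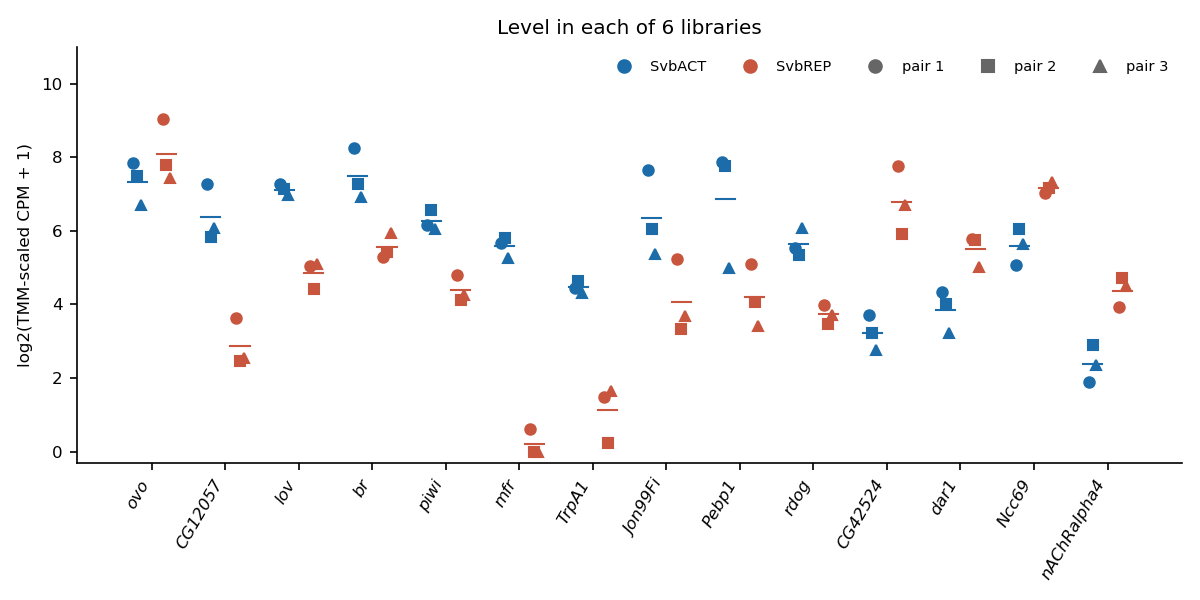
Level of 14 genes in each of the 6 libraries, as log2 of TMM-scaled CPM plus 1 (y axis), with a line at each group's mean of 3 libraries. The groups overlap for ovo and Pebp1 only among the genes drawn, and mfr is near 0 in the 3 SvbREP libraries.

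Digestive proteases were the gene group with the most called members. The Jonah genes encode chymotrypsin-like serine proteases and the Try genes encode trypsins, both secreted into the gut lumen. Of 26 tested members of the trypsin and Jonah list, 4 rose and 0 fell, 24 had a positive log2 ratio and 16 (61.5%) were higher in SvbACT in all 3 pairs. Over all tested genes 0.327% were called higher, 48.2% had a positive log2 ratio and 13.2% were higher in all 3 pairs. The list was chosen with earlier results of these data known. The median log2 ratio of the list was 0.95, against -0.01 over all tested genes, and it was 0.61, 1.23 and 1.34 in pairs 1, 2 and 3. Summed over the list, the level was 2313, 1191 and 703 CPM in SvbACT against 1147, 484 and 372 CPM in SvbREP, so SvbACT was higher in each pair while the groups overlapped.

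Jon25Biii had the highest mean CPM of the list, at 605, 328 and 108 CPM in SvbACT against 195, 50.2 and 50.9 CPM in SvbREP. Its log2 ratio was 1.82 (SE 0.27, adjusted p 0.0224), and its groups overlapped, with library 1 the highest of both. Jon99Fii had 307, 142 and 62.1 CPM in SvbACT against 64.9, 41.9 and 27.4 CPM in SvbREP, a log2 ratio of 1.76 (SE 0.21, adjusted p 0.00683). Its groups overlapped as well. The neighbouring gene Jon99Fi had 199, 65.6 and 40.5 CPM in SvbACT against 36.4, 9.00 and 11.9 CPM in SvbREP, a log2 ratio of 2.39 (SE 0.23, adjusted p 0.00203). Here the lowest SvbACT library lay just above the highest SvbREP library. Jon66Ci had 30.7, 17.8 and 14.7 CPM in SvbACT against 7.67, 1.26 and 1.83 CPM in SvbREP, a log2 ratio of 2.78 (SE 0.40, adjusted p 0.0209), and its groups did not overlap. The Jonah genes are related copies, and how reads that match several of them were counted is not given in the sources used here, so the split between Jon99Fi and Jon99Fii is uncertain. Without the replicate block the adjusted p of these 4 genes ran from 0.366 (Jon66Ci) to 0.901 (Jon25Biii). By library totals the adjusted p was 0.0689 for Jon66Ci and 0.0688 for Jon25Biii.

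The members next in order of p did not pass the test. kappaTry was at 25.4, 14.5 and 6.64 CPM in SvbACT against 8.58, 3.78 and 0.914 CPM in SvbREP (log2 ratio 1.94, SE 0.36, adjusted p 0.0730), Jon99Cii at a log2 ratio of 0.99 (SE 0.19, adjusted p 0.0867), lambdaTry at 2.18 (SE 0.45, adjusted p 0.101) and Jon65Aii at 1.50 (SE 0.31, adjusted p 0.101). These were higher in SvbACT in all 3 pairs. yip7, next to Jon25Biii in mean CPM, averaged 151 CPM in SvbACT against 107 CPM in SvbREP. Jon65Ai and Jon25Bi had negative log2 ratios, with 95% intervals that took in 0. With pair 1 left out the median of the list was 1.42, and 10 members were called. With pair 2 left out 4 were called, with pair 3 left out 7, and by DESeq2 8. Over all tested genes these 4 fits called 205, 28, 93 and 86 genes, of which 130, 20, 52 and 61 were higher in SvbACT. With no block and single libraries left out, the median ran from 0.35 without SvbREP library 3 to 2.05 without SvbREP library 1.

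**Figure D3:**
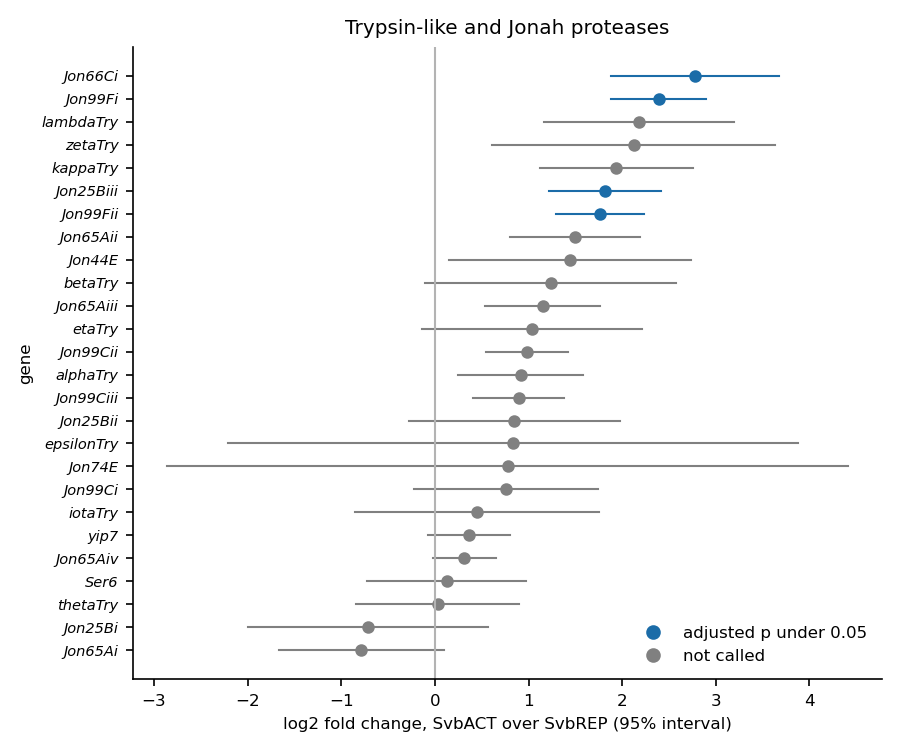
Log2 ratio of SvbACT over SvbREP with its 95% interval (x axis) for the 26 tested trypsin and Jonah genes (y axis). Of the 26 points 24 lie above 0, and the 4 called genes, all Jonah genes, lie between 1.76 and 2.78.

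Other genes called higher in SvbACT took in a maltase, an aminopeptidase and genes with trypsin-like domains, beside CG32444 and Pebp1. Mal-A4, a maltase that splits sugars, had 106, 92.9 and 46.1 CPM in SvbACT against 44.3, 28.1 and 7.92 CPM in SvbREP. The lowest SvbACT library was only slightly above the highest SvbREP library, and the log2 ratio was 1.75 (SE 0.24, adjusted p 0.0158). CG31233, which encodes an aminopeptidase by its sequence, had 205, 97.1 and 68.1 CPM in SvbACT against 45.0, 7.56 and 12.5 CPM in SvbREP (log2 ratio 2.72, SE 0.28, adjusted p 0.00322). CG32444, annotated as an aldose epimerase, had raw counts of 184, 75 and 89 in SvbACT against 12, 1 and 5 in SvbREP. Its log2 ratio was 4.12 (SE 0.44, adjusted p 0.00455), and the groups were well separated. Pebp1, a member of the family that binds phosphatidylethanolamine, had 232, 215 and 30.5 CPM in SvbACT against 33.0, 15.7 and 9.75 CPM in SvbREP. SvbACT library 3 lay below SvbREP library 1, so the groups overlapped at a log2 ratio of 2.87 (SE 0.33, adjusted p 0.00677). CG11911 and CG10472 carry trypsin-like domains and were not on the list. CG11911 had 108, 42.1 and 29.9 CPM in SvbACT against 15.1, 3.60 and 3.66 CPM in SvbREP (log2 ratio 3.10, SE 0.23, adjusted p 0.000604). CG10472, outside the naming rule and chosen after its values were seen, had a log2 ratio of 1.53 (SE 0.24, adjusted p 0.0298). Without the block none of these 6 genes was called, with adjusted p from 0.0743 (CG32444) to 0.804 (CG10472). With pair 2 left out CG10472 was at an adjusted p of 0.0502, and by library totals Mal-A4 was at 0.0689 and CG10472 at 0.0747.

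As a group the maltases, amylases and mannosidases were mixed. Of 17 tested, 1 rose and 0 fell, 12 had a positive sign, and the median was 0.22, with pair medians of 0.18, -0.27 and 1.16. Mal-A1, also a maltase, had a log2 ratio of 0.95 (SE 0.28, adjusted p 0.367) and LManII, a mannosidase, one of 0.85 (SE 0.31, adjusted p 0.582). Amy-d, an amylase, went the other way with raw counts of 27, 26 and 5 in SvbACT against 256, 41 and 35 in SvbREP. Its log2 ratio of -2.53 (SE 0.46, adjusted p 0.0634) did not pass the edgeR test. DESeq2 called both Amy-d (adjusted p 0.000631) and Mal-A1 (adjusted p 0.0350). Amy-p, its near-identical copy, had a log2 ratio of -0.60 (SE 0.37, adjusted p 0.871), and how reads were split between the pair is uncertain. LManVI, a mannosidase, had the highest mean CPM, with 132 CPM in SvbACT against 122 CPM in SvbREP.

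For lipid digestion and export edgeR called 0 of 19 tested genes, with 5 at an unadjusted p under 0.05 and a median of 0.07. Npc2e, of the family of sterol-binding proteins, had a log2 ratio of 1.20 (SE 0.22, adjusted p 0.0662). bmm, the brummer fat lipase, had one of -0.77 (SE 0.16, adjusted p 0.0973). DESeq2 called both, with adjusted p of 0.0128 and 0.0139. Lsd-2, a perilipin that coats lipid droplets, had the highest mean CPM, at 1006 CPM in SvbACT against 1139 CPM in SvbREP.

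Genes for 3 transcription factors passed the test. lov (jim lovell) encodes a BTB-domain factor and lies on chromosome 2R from 25085780 to 25139627 (dm6). It had 154, 139 and 124 CPM in SvbACT against 32.1, 20.5 and 33.5 CPM in SvbREP. All SvbACT libraries were far above all SvbREP libraries, and the log2 ratio was 2.30 (SE 0.20, adjusted p 0.00115). br (Broad), an early factor of the ecdysone response with a BTB domain and zinc fingers, had 303, 154 and 121 CPM in SvbACT against 38.1, 41.8 and 60.7 CPM in SvbREP. The difference was largest in pair 1 (2.98) and smallest in pair 3 (0.99), and the log2 ratio was 1.97 (SE 0.32, adjusted p 0.0374). dar1, a Krüppel-like factor known for dendrite growth in neurons, ran the opposite way at 19.2, 15.0 and 8.31 CPM in SvbACT against 54.1, 53.1 and 31.4 CPM in SvbREP (log2 ratio -1.73, SE 0.20, adjusted p 0.00683). Its groups did not overlap. Without the block lov was called (adjusted p 0.00506) and br and dar1 were not (0.0743 and 0.162). By library totals br was at 0.0787. Exons of br overlap those of Mur2B on the opposite strand, which had 1124, 643 and 853 CPM in SvbACT against 826, 454 and 671 CPM in SvbREP and a log2 ratio of 0.43 (SE 0.14, adjusted p 0.452).

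No other gene of the ecdysone list was called. br was the only one of 12 tested members, 8 had a negative sign, and the median was -0.06. The nuclear receptor gene ftz-f1 had a log2 ratio of 0.42 (SE 0.15, adjusted p 0.579). Eip93F, highest in mean CPM, averaged 935 CPM in SvbACT against 925 CPM in SvbREP. Among the enterocyte regulators edgeR called 0 of 18, with 2 at an unadjusted p under 0.05 and a median of 0.05. The factors nub, cad and GATAe were present in every library. nub ran from 44.0 to 68.9 CPM in SvbACT and from 23.5 to 184 CPM in SvbREP, where library 1 was the high one. hth, a homeodomain factor, had raw counts of 150, 30 and 13 in SvbACT against 905, 19 and 10 in SvbREP, a log2 ratio of -1.26 (SE 0.48, adjusted p 0.596). With SvbREP library 1 left out and no block, it was 1.50. Hnf4, a nuclear receptor that responds to lipids, had one of -0.30 (SE 0.14, adjusted p 0.800).

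Channels, receptors and transporters were called in both directions. TrpA1, a cation channel gated by heat and irritants, had raw counts of 145, 215 and 91 in SvbACT against 14, 1 and 7 in SvbREP. The corresponding levels were 20.8, 23.8 and 18.9 CPM in SvbACT against 1.82, 0.180 and 2.13 CPM in SvbREP, with no overlap and a log2 ratio of 4.05 (SE 0.55, adjusted p 0.0158). nAChRalpha4, a subunit of the nicotinic acetylcholine receptor, had 2.72, 6.41 and 4.15 CPM in SvbACT against 14.2, 25.2 and 21.6 CPM in SvbREP, with no overlap (log2 ratio -2.22, SE 0.30, adjusted p 0.0158). AdoR, the adenosine receptor, was lower in SvbACT within each pair. It had 9.17, 12.2 and 26.4 CPM in SvbACT against 22.1, 33.8 and 76.2 CPM in SvbREP, both groups highest in library 3, so that they overlapped at a log2 ratio of -1.43 (SE 0.20, adjusted p 0.0172). Ncc69, a sodium-potassium-chloride cotransporter, had 33.0, 64.8 and 49.2 CPM in SvbACT against 129.8, 142 and 161 CPM in SvbREP. Every SvbREP library was well above every SvbACT library, a log2 ratio of -1.60 (SE 0.19, adjusted p 0.00683). Ncc69 was the only one called of 21 tested chloride, sodium and potassium transporter genes, whose median was -0.07. The sodium pump subunit nrv3 had a log2 ratio of 0.75 (SE 0.17, adjusted p 0.141) there. Without the block the adjusted p was 0.0363 for TrpA1, 0.114 for nAChRalpha4, 0.837 for AdoR and 0.0624 for Ncc69. With pair 2 left out nAChRalpha4 was at 0.0656 and AdoR at 0.0593, and by library totals TrpA1 was at 0.0525.

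A pair of ABC transporter genes, which encode pumps driven by ATP, rose in SvbACT. rdog had 45.6, 40.0 and 66.2 CPM in SvbACT against 14.9, 10.1 and 12.2 CPM in SvbREP, with no overlap and a log2 ratio of 1.99 (SE 0.23, adjusted p 0.00646). Mdr49, a multidrug pump, had 38.5, 40.2 and 20.1 CPM in SvbACT against 14.6, 4.14 and 4.27 CPM in SvbREP and a log2 ratio of 2.24 (SE 0.36, adjusted p 0.0368), and its groups did not overlap either. Of 27 tested ABC genes these 2 were called, 17 had a negative sign and the median was -0.14. E23 came next by p, at a log2 ratio of 0.65 (SE 0.19, adjusted p 0.352), and the eye pigment transporter w had the highest mean CPM, at 862 CPM in SvbACT against 1031 CPM in SvbREP. Without the block rdog was called (adjusted p 0.0272) and Mdr49 was not (0.334). Mdr49 was at 0.0718 with pair 2 left out and at 0.108 by library totals.

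Adhesion genes gave 2 calls of 17 tested, with a median of 0.02. rst (roughest), an immunoglobulin-domain protein by which cells recognise each other, had 32.7, 35.6 and 31.1 CPM in SvbACT against 10.8, 7.56 and 11.3 CPM in SvbREP. Replicates were close within each group, and the log2 ratio was 1.76 (SE 0.25, adjusted p 0.0186). Cad87A, a cadherin, had 119, 80.0 and 145 CPM in SvbACT against 64.7, 45.2 and 75.0 CPM in SvbREP. Its groups were separated by a small gap and the log2 ratio was 0.88 (SE 0.15, adjusted p 0.0450). Fas2, another immunoglobulin-domain adhesion gene, had a log2 ratio of 0.41 (SE 0.14, adjusted p 0.551). In the list of septate junction and polarity genes edgeR called 0 of 27, with 3 at an unadjusted p under 0.05 and a median of 0.00. Lac, a junction component, was the first by p at -2.26 (SE 0.57, adjusted p 0.246). Without the block rst was called (adjusted p 0.0363) and Cad87A was not (0.632). With pair 2 left out they were at 0.0765 and 0.123, Cad87A was at 0.0789 with pair 3 left out, and by library totals they were at 0.0525 and 0.106.

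piwi encodes the nuclear Argonaute protein that silences transposons with piRNAs, a role known from the germline. It had 70.6, 93.7 and 65.0 CPM in SvbACT against 27.0, 16.6 and 18.3 CPM in SvbREP. Every SvbACT library was well above every SvbREP library, and the log2 ratio was 1.89 (SE 0.23, adjusted p 0.00810). It was the only one called of 26 tested genes for piRNAs and other small RNAs, whose median was -0.02, with armi at a log2 ratio of -0.31 (SE 0.20, adjusted p 0.891). piwi exons overlap SCAR on the opposite strand. SCAR had 96.7, 87.0 and 83.1 CPM in SvbACT against 70.7, 75.3 and 71.9 CPM in SvbREP and a log2 ratio of 0.29 (SE 0.15, adjusted p 0.844). hpRNA:CR32207, a hairpin transcript of the class that yields endogenous siRNAs, had 5.01, 4.86 and 4.15 CPM in SvbACT against 14.6, 19.8 and 19.2 CPM in SvbREP. The groups were clearly apart, at a log2 ratio of -1.91 (SE 0.32, adjusted p 0.0450). Without the block piwi was called (adjusted p 0.0272) and hpRNA:CR32207 was not (0.0669). The latter was at 0.195 with pair 2 left out and at 0.0787 by library totals.

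Called genes with other known roles were aay, Pect and pirk, all higher in SvbACT. aay (astray), the phosphatase that completes serine synthesis, had 24.8, 22.8 and 14.7 CPM in SvbACT against 7.93, 4.86 and 2.13 CPM in SvbREP (log2 ratio 2.13, SE 0.32, adjusted p 0.0285). Pect, an enzyme of phosphatidylethanolamine synthesis that falls outside the naming rule and was chosen after its values were seen, had 196, 157 and 146 CPM in SvbACT against 119, 79.2 and 75.3 CPM in SvbREP (log2 ratio 0.89, SE 0.14, adjusted p 0.0368). Neither gene's groups overlapped. pirk, an inhibitor of the Imd immune pathway, had 263, 197 and 132 CPM in SvbACT against 153, 117 and 72.8 CPM in SvbREP. Its groups overlapped, while its differences in the 3 pairs were alike at 0.78, 0.74 and 0.86, and the log2 ratio was 0.79 (SE 0.13, adjusted p 0.0484). It was the only one called of 18 tested genes of gut immunity and JAK/STAT, whose median was 0.01. PGRP-LB, an amidase that degrades peptidoglycan, had a log2 ratio of -0.65 (SE 0.22, adjusted p 0.534). Without the block aay, Pect and pirk were at adjusted p of 0.237, 0.382 and 0.987. With pair 2 left out they were at 0.0901, 0.156 and 0.156, pirk was at 0.0757 with pair 3 left out, and by library totals they were at 0.0787, 0.100 and 0.106.

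The largest log2 ratio among the called genes was that of mfr (misfire), a ferlin gene known for its role in sperm, at chromosome 3L from 8905918 to 8912671 (dm6). Its raw counts were 352, 494 and 181 in SvbACT against 4, 0 and 0 in SvbREP. It was thus well measured in every SvbACT library and at or near 0 in every SvbREP library. The ratio of summed counts, scaled by library size, was 204 with a counting interval of 79.3 to 749. The fitted log2 ratio of 7.62 (SE 0.51, adjusted p 0.000342) depends on how counts of 0 are treated. Tsp66E, whose exons overlap mfr on the opposite strand, had 8, 0 and 3 counts in SvbACT against 4, 1 and 1 in SvbREP. Without the block mfr was called (adjusted p 0.000854).

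The remaining called genes carry no function that is described here. CG12057 had the smallest adjusted p, at 155, 55.6 and 66.0 CPM in SvbACT against 11.3, 4.50 and 4.88 CPM in SvbREP and a log2 ratio of 3.72 (SE 0.20, adjusted p 7.48e-05). The difference was nearly equal in the 3 pairs, at 3.74, 3.54 and 3.67. CG42524 had the lowest log2 ratio of the called genes, at 12.0, 8.40 and 5.81 CPM in SvbACT against 216, 58.9 and 104 CPM in SvbREP. Its log2 ratio was -3.69 (SE 0.29, adjusted p 0.000612), and all SvbREP libraries were far above all SvbACT libraries. CG13315 had 65.2, 49.6 and 32.8 CPM in SvbACT against 20.7, 6.30 and 6.40 CPM in SvbREP (log2 ratio 2.28, SE 0.28, adjusted p 0.00769), and CG43078 had 79.2, 51.4 and 56.3 CPM in SvbACT against 179, 89.1 and 115 CPM in SvbREP (log2 ratio -1.002, SE 0.15, adjusted p 0.0297). The groups overlapped for neither. CG9380 and CG32373, both outside the naming rule and chosen after their values were seen, had the highest mean CPM of this set. CG9380 had 859, 575 and 718 CPM in SvbACT against 239, 133 and 274 CPM in SvbREP (log2 ratio 1.78, SE 0.17, adjusted p 0.00203). CG32373 had 350.1, 373 and 355 CPM in SvbACT against 214, 129 and 151 CPM in SvbREP (log2 ratio 1.16, SE 0.17, adjusted p 0.0273). CG12057 and CG42524 were called without the block (adjusted p 0.0272 for both), and CG13315, CG43078, CG9380 and CG32373 were not (0.237, 0.479, 0.0624 and 0.112). With pair 2 left out CG43078 was at 0.0528 and CG32373 at 0.0718, and by library totals they were at 0.0747 and 0.0814.

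Since only 7 genes were called lower in SvbACT, the next 3 by p with a negative sign in all pairs are given as values. CG17224 had 45.4, 47.1 and 71.0 CPM in SvbACT against 100.1, 103 and 109 CPM in SvbREP and a log2 ratio of -0.97 (SE 0.17, adjusted p 0.0557). Amy-d, above, was the second. snRNA:U11, an RNA of the minor spliceosome, had 61.9, 158 and 638 CPM in SvbACT against 123, 392 and 913 CPM in SvbREP and a log2 ratio of -0.94 (SE 0.17, adjusted p 0.0667). Both groups of snRNA:U11 were lowest in library 1 and highest in library 3, and they overlapped. None of the 3 genes passed the edgeR test, while DESeq2 called CG17224, Amy-d and snRNA:U11 at adjusted p of 0.00183, 0.000631 and 0.000147.

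Called genes lay on every large chromosome arm, and 13 of the 33 were on 3L, 0.863% of 1507 tested genes there. On the other large arms 4 of 1383 were called on 2L, 6 of 1615 on 2R, 7 of 1905 on 3R and 3 of 1335 on X. mfr and TrpA1 are neighbours on the same strand, 717 bases apart. The tested genes with the nearest starts on either side were not called, with log2 ratios of 0.09 for asRNA:CR45871, 0.01 for Mcm7, 0.08 for CG43783 and -0.00 for mRpL12. CG13313, just past mRpL12, had a log2 ratio of 1.75 (SE 0.83, adjusted p 0.800) that was positive in all 3 pairs and was not called. In the 1.03 Mb from Jon66Ci to aay, a span chosen after the values were seen, 6 of 87 tested genes were called and the median log2 ratio was 0.01. Jon99Fi and Jon99Fii lie 1034 bases apart on 3R. lov and CG9380 lie on the same strand of 2R, and the 170 kb from the start of one to the end of the other, likewise chosen after the values were seen, held 7 tested genes. Besides these 2 called genes, EbpII (2.45, SE 0.75, adjusted p 0.435), Ebp (1.34, SE 0.51, adjusted p 0.602) and Kr (1.88, SE 0.70, adjusted p 0.591) had log2 ratios that were positive in all 3 pairs and were not called. The remaining members, also not called, were Sfp60F (0.58, SE 0.96, adjusted p 0.961), positive in 2 of 3 pairs, and CG30428 (-1.02, SE 0.48, adjusted p 0.792), negative in all 3. Where the transgenes are inserted is not given in the sources used here, and the part of differences between stocks near these genes was not tested.

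**Figure D4:**
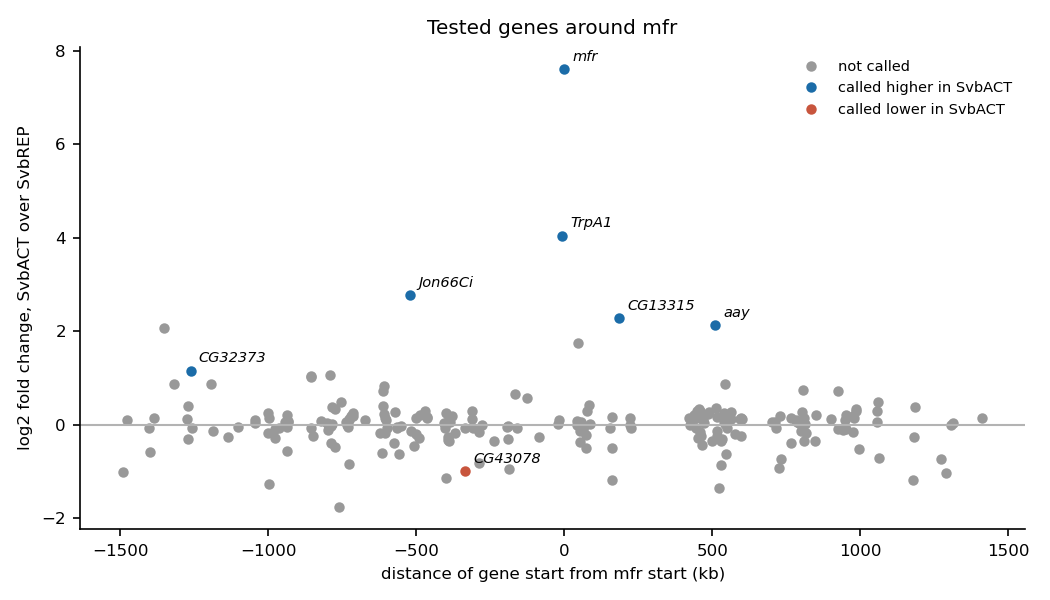
Log2 ratio of SvbACT over SvbREP (y axis) of tested genes against the distance of their start from the start of mfr in kb (x axis), with called genes named. mfr at 7.62 and TrpA1 at 4.05 stand next to each other, with asRNA:CR45871 and Mcm7 on one side at 0.09 and 0.01. On the other side lie CG43783 at 0.08, mRpL12 at -0.00 and CG13313 at 1.75, none of them called.

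A few genes had counts in 1 form and almost none in the other without passing the test. CG32437 had 38, 30 and 30 counts in SvbACT against 0 in each SvbREP library. Against a floor of 3 counts per library it was at least 8.13-fold higher in SvbACT (edgeR adjusted p 0.0637). lncRNA:CR46123 had 0 counts in each SvbACT library and 24, 14 and 11 in SvbREP, at least 6.50-fold higher in SvbREP (edgeR adjusted p 0.129). CG7631 had 37, 28 and 21 counts in SvbACT against 1, 2 and 0 in SvbREP, a ratio of summed counts of 22.7 with a counting interval of 7.52 to 112 (adjusted p 0.100). DESeq2 called CG32437, lncRNA:CR46123 and CG7631 at adjusted p of 0.000469, 0.00707 and 0.0269.

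Genes known to act with Svb gave no call. Of the processing genes only Ubr3, Ubc6 and EcR were tested. Ubr3, the ligase named above, had 253, 269 and 264 CPM in SvbACT against 301, 274 and 351 CPM in SvbREP and a log2 ratio of -0.23 (SE 0.14, adjusted p 0.871). The ecdysone receptor gene EcR averaged 355 CPM in SvbACT against 365 CPM in SvbREP. Of 20 epidermal Svb targets on the list 8 were tested, edgeR called 0, and 2 were at an unadjusted p under 0.05. The sign was negative for 7 of the 8, with a median of -0.26, against 4118 of 7949 over all tested genes. Only 1 of the 8 (12.5%) was lower in SvbACT in all 3 pairs, against 14.3% of all tested genes. mwh (multiple wing hairs), which acts in hair formation, had raw counts of 27, 39 and 58 in SvbACT against 174, 59 and 37 in SvbREP, a log2 ratio of -1.26 (SE 0.48, adjusted p 0.615). SvbACT was lower for mwh in pairs 1 and 2 but not in pair 3. ect, a gene of the epidermal list, had 7.74, 4.20 and 8.93 CPM in SvbACT against 12.3, 19.6 and 10.4 CPM in SvbREP, lower in SvbACT in all 3 pairs with no overlap, and a log2 ratio of -1.04 (SE 0.42, adjusted p 0.672).

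Over 39 gene lists, 31 had no called member. These 31 lists held 923 tested genes, of which 59 (6.39%) were at an unadjusted p under 0.05, near the 6.63% of all tested genes. DESeq2 called 8 of the 923. Lists of 10 or more tested genes with no call had medians between -0.08 and 0.14. For detoxification 0 of 50 were called by edgeR, 7 at an unadjusted p under 0.05, and Cyp4d1, a cytochrome P450, had a log2 ratio of 2.33 (SE 0.41, adjusted p 0.0557), which DESeq2 called (adjusted p 0.00109). In glycolysis Hex-A, a hexokinase, had a log2 ratio of 0.99 (SE 0.22, adjusted p 0.139), which DESeq2 called as well (adjusted p 0.00168). The cell death gene hid was at 0.84 (SE 0.24, adjusted p 0.345), the mitotic phosphatase gene stg at 0.78 (SE 0.25, adjusted p 0.483), the EGF receptor ligand vn at 0.41 (SE 0.16, adjusted p 0.641) and the TOR inhibitor Sesn at -0.44 (SE 0.14, adjusted p 0.495). None of these 4 passed the test. Cytosolic ribosomal protein genes had a positive sign in 66 of 78, with a median of 0.13 and pair medians of 0.34, -0.06 and 0.11, and 1 was at an unadjusted p under 0.05. Over all tested genes 48.2% had a positive sign. Of the 78, 7 (8.97%) were higher in SvbACT in all 3 pairs, against 13.2% of all tested genes.

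**Figure D5:**
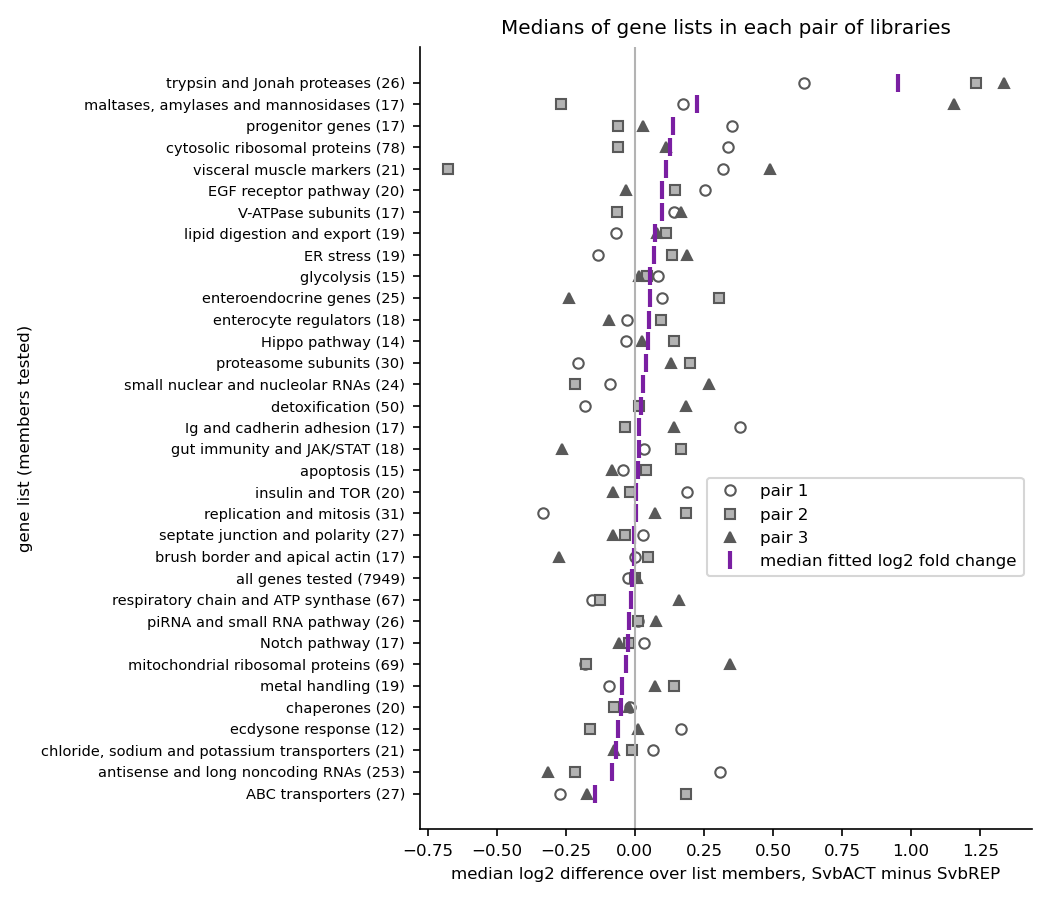
Median log2 difference of SvbACT minus SvbREP (x axis) over the tested members of each gene list with 10 or more (y axis, number tested in brackets), with 1 symbol for each pair of libraries and a bar at the median fitted log2 ratio. The trypsin and Jonah list, at 0.95, has the highest median of the lists drawn, and its pair medians of 0.61, 1.23 and 1.34 all lie above 0.

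Markers of other gut cells were present in every library of both groups. esg, which marks stem cells and enteroblasts, ran from 963 to 1762 CPM in SvbACT and from 944 to 1144 CPM in SvbREP. Dl, the Notch ligand of stem cells, ran from 341 to 578 CPM and from 294 to 449 CPM. In the progenitor list edgeR called 0 of 17, with 0 at an unadjusted p under 0.05, 0 by DESeq2 and a median of 0.14. Its summed level ran from 9318 to 13668 CPM in SvbACT and from 9285 to 10774 CPM in SvbREP. Most of this sum came from members other than esg and Dl, so it is not a measure of progenitor RNA.

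The enteroendocrine list holds hormone genes of the gut, genes for processing and releasing hormones, and transcription factor genes such as pros. It gave 0 calls of 25 by edgeR and by DESeq2, with 2 at an unadjusted p under 0.05 and a median of 0.05. Summed, the 25 genes ran from 1616 to 2055 CPM in SvbACT and from 1555 to 1850 CPM in SvbREP. AstC ran from 46.3 to 171 CPM and from 30.9 to 87.9 CPM, Tk from 11.5 to 16.9 CPM and from 10.1 to 24.7 CPM, and CCHa1 had a log2 ratio of 1.42 (SE 0.36, adjusted p 0.249). AstC and Tk made up a small part of the sum, which is not a measure of enteroendocrine RNA. In the visceral muscle list 0 of 21 were called by either tool, with 1 at an unadjusted p under 0.05 (vkg, 1.07, SE 0.45, adjusted p 0.718). The sum over this list ran from 10995 to 14696 CPM in SvbACT and from 12410 to 14395 CPM in SvbREP. Mhc ran only from 10.3 to 50.5 CPM and from 7.80 to 76.9 CPM, and Act57B from 9.84 to 17.7 CPM and from 1.43 to 27.7 CPM. Nearly all of the sum thus came from other members, and it is not a measure of muscle RNA. Of 5 tested blood cell markers 0 were called by either tool, with 2 at an unadjusted p under 0.05, and their sum ran from 229 to 338 CPM and from 273 to 359 CPM. srp ran from 24.65 to 33.4 CPM in SvbACT and from 18.0 to 35.05 CPM in SvbREP. Most of the sum came from other members, and it is not a measure of blood cell RNA. Of markers of the Malpighian tubule and hindgut, the aquaporin gene Drip ran from 2.21 to 6.30 CPM in SvbACT and from 0.540 to 13.3 CPM in SvbREP, where library 1 was again the high one. Prip and ct of the same list did not share this. In SvbREP libraries 1, 2 and 3 Prip had 43.8, 55.45 and 38.1 CPM, and ct had 2.47, 1.44 and 3.05 CPM. Yolk protein genes Yp1, Yp2 and Yp3 had at most 14 counts in any library. The part of these cell types in the called differences was not tested.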

How the data were processed

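The authors' deposited table gives raw counts per gene and library, whole numbers that were not normalised. Per the submitters' processing notes, FastQC 0.11.5, STAR 2.5.2b, HTSeq 0.6.0, edgeR and the genome build dm6 were used, with no roles, strand setting or rule for choosing the 8802 genes given. Per the labels' protocols, RNA was purified with MasterPure and libraries were made with Ovation SoLo and read as single ends. Another 12 per-sample columns named at the foot of the table were not used. Symbols were taken from the file or a reference table, which matched 8686 of 8802 identifiers, and coordinates are from the Ensembl annotation of the same build.

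The test on the counts of the 6 libraries was edgeR 4.0.16 under R 4.3.3. The filter was filterByExpr at a minimum of 10 counts, the scaling was TMM, and a quasi-likelihood model with group and replicate number as factors was tested two-sided. A gene was called at a Benjamini-Hochberg adjusted p under 0.05 over 7949 genes. Log2 differences per pair used a prior count of 2. The script was tested on simulated data.

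The replicate numbers are the suffixes of the sample descriptions. No label says that a number marks a shared day, but deviations of same-numbered libraries from their group means correlated across genes at 0.295, 0.215 and 0.202, all over 0.1, so the numbers were taken to pair the libraries. Replicates differed beyond sampling noise, and no label says how flies of a pair were related. The p-values of the main fit measure the spread of differences within these pairs, as spread shared by a pair is taken out by the block. Those of the fit without the block measure the spread between these libraries within a group.

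ovo, Myo31DF and up to 15 called genes in each direction by size, filled to 10 by p, were named, with the called members, the member of smallest p and the members of highest mean CPM of each list. In lists without a call these are given only where the list is described by itself. Members, lists and tests were chosen with earlier results of these data known. Alternatives were a fit without the block, DESeq2 1.42.0, RLE and library-total scaling, other filters, and leaving out pairs or single libraries. A search of promoters for a motif was planned and not run, and no sequences are shown.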

Additional observations from a re-analysis of the deposited data

How the results depend on the processing

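The replicate block, the scaling and the libraries used changed how many genes were called. Each of the 33 called genes kept its direction in all 494 comparisons with an alternative setting, and 281 of these kept the call. The 33 were called on these same libraries with the same sign in every pair, and the alternatives reuse them. Their direction could therefore hardly turn, and its keeping is no separate support. Against 33 genes called with the replicate block, 26 higher and 7 lower in SvbACT, there were 8 without the block (7 and 1), 18 by library totals (13 higher), 51 with no filter on low counts (40 and 11) and 86 by DESeq2 (61 and 25). Genes tested are more with no filter, so that count is over another set. Leaving out libraries gave 2 to 205 calls, 2 to 130 of them higher and 0 to 75 lower. The highest of these was without pair 1, and the fits without the block that left out a single library gave 2 to 4 calls except for 43 without SvbREP library 1. The cause of these differences was not tested. Scaling by library totals shifted the median log2 ratio of all genes from -0.011 to -0.026. ovo was called by DESeq2 at a log2 ratio of -0.76 and by no other alternative, and its log2 ratio ran from -1.13 to -0.21. Direction turned for some genes that were not called. Over the fits that left out libraries, the log2 ratio ran from -1.24 to 0.13 for Amy-p (0.07 without pair 1), from -3.79 to 1.50 for hth, from -2.11 to 0.15 for snRNA:U11, from -0.29 to 0.47 for Mcm7, from -0.29 to 0.32 for CG43783, from -0.36 to 1.94 for Sfp60F, from -0.0901 to 0.46 for asRNA:CR45871 and from -0.25 to 0.29 for mRpL12. The last was also at 0.0021 with no filter and at 0.005 among genes of at least 10 CPM. A gene is limited by depth where it has under about 3 counts in a library, as mfr and TrpA1 have in SvbREP library 2.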
